A study of Mus musculus with 16 samples.

Results

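The 37 genes described here are cell cycle genes chosen by name: each row of the deposited expression table whose symbol was on a list of cyclins, mitotic kinases, spindle and kinetochore genes, S phase enzymes, cyclin-dependent kinases with their inhibitors, and the retinoblastoma and E2F genes. All 37 were found among the 19540 genes of the table, and all 37 were among the 14319 genes that passed the filter on low values and were tested. RNA was sequenced in bulk from regulatory T cells (Treg, Foxp3-expressing CD4 T cells that keep immune responses in check) and from Tconv, the conventional T cells, both isolated by flow cytometry from the visceral adipose tissue of C57BL/6JRcc mice aged 12 weeks. The 4 groups were Treg KO (4 libraries), Treg WT (3), Tconv KO (5) and Tconv WT (4). In KO mice, a Cre joined to yellow fluorescent protein and driven by Foxp3 removed a floxed Hpgd allele, so the deletion is aimed at Treg, and Tconv KO are Tconv taken beside deleted Treg. Hpgd encodes the dehydrogenase that inactivates prostaglandin E2. The label for the mouse line is the same in all 16 samples, also in those titled WT, so genotype rests on the titles, and the labels do not say whether WT mice carry the Cre. The series design gives 5 KO and 4 WT animals but ties no library to an animal, so p-values measure the spread between these libraries.

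Cells divide by passing from G1 into DNA synthesis and then mitosis, driven in turn by cyclins bound to cyclin-dependent kinases. D-type cyclins act in G1 with Cdk4 and Cdk6 to release E2F transcription factors from the retinoblastoma protein, Ccne1 and Ccna2 act with Cdk2 in S phase, and B-type cyclins act with Cdk1 in mitosis, while p21 (Cdkn1a) and p27 (Cdkn1b) hold the kinases in check. Genes of mitosis are transcribed mainly in dividing cells and are low in resting T cells, in which the D-type cyclins and the inhibitors are transcribed. Treg are known to proliferate within visceral fat. In bulk RNA, fewer dividing cells and less RNA per dividing cell cannot be told apart.

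Libraries held 3.39 to 9.26 M reads, apart from Tconv KO 3 with 56.7 M. Levels are normalised values, in which a gene with no reads stands at 1, and they are compared here between libraries within a gene, not between genes. Hpgd stood at 3.41, 2.54, 2.42 and 1.00 in the Treg KO libraries, against 73.1, 56.0 and 4.31 in the Treg WT libraries, so the library labelled Treg WT 3 was close to the Treg KO libraries. Foxp3 ran from 279 to 546 in Treg KO, from 292 to 616 in Treg WT, from 1.00 to 4.99 in Tconv KO and from 1.00 to 39.3 in Tconv WT. All 7 T cell markers had reads in each group. Markers of other cells stood out in Tconv WT 1 (macrophage markers summed to 1059.8 and neutrophil markers to 16472) and in Tconv WT 3 (2 red cell markers summed to 1198). Markers of CD8 T and NK cells summed to 16.9 to 138 in Treg KO, 61.8 to 167 in Treg WT, 57.7 to 515 in Tconv KO and 119 to 665 in Tconv WT, and Klrd1, an NK receptor, had no reads in Treg. Each Treg KO library had reads for more genes (15135 to 16041) than each Treg WT library (14216 to 14874).

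**Figure D1:**
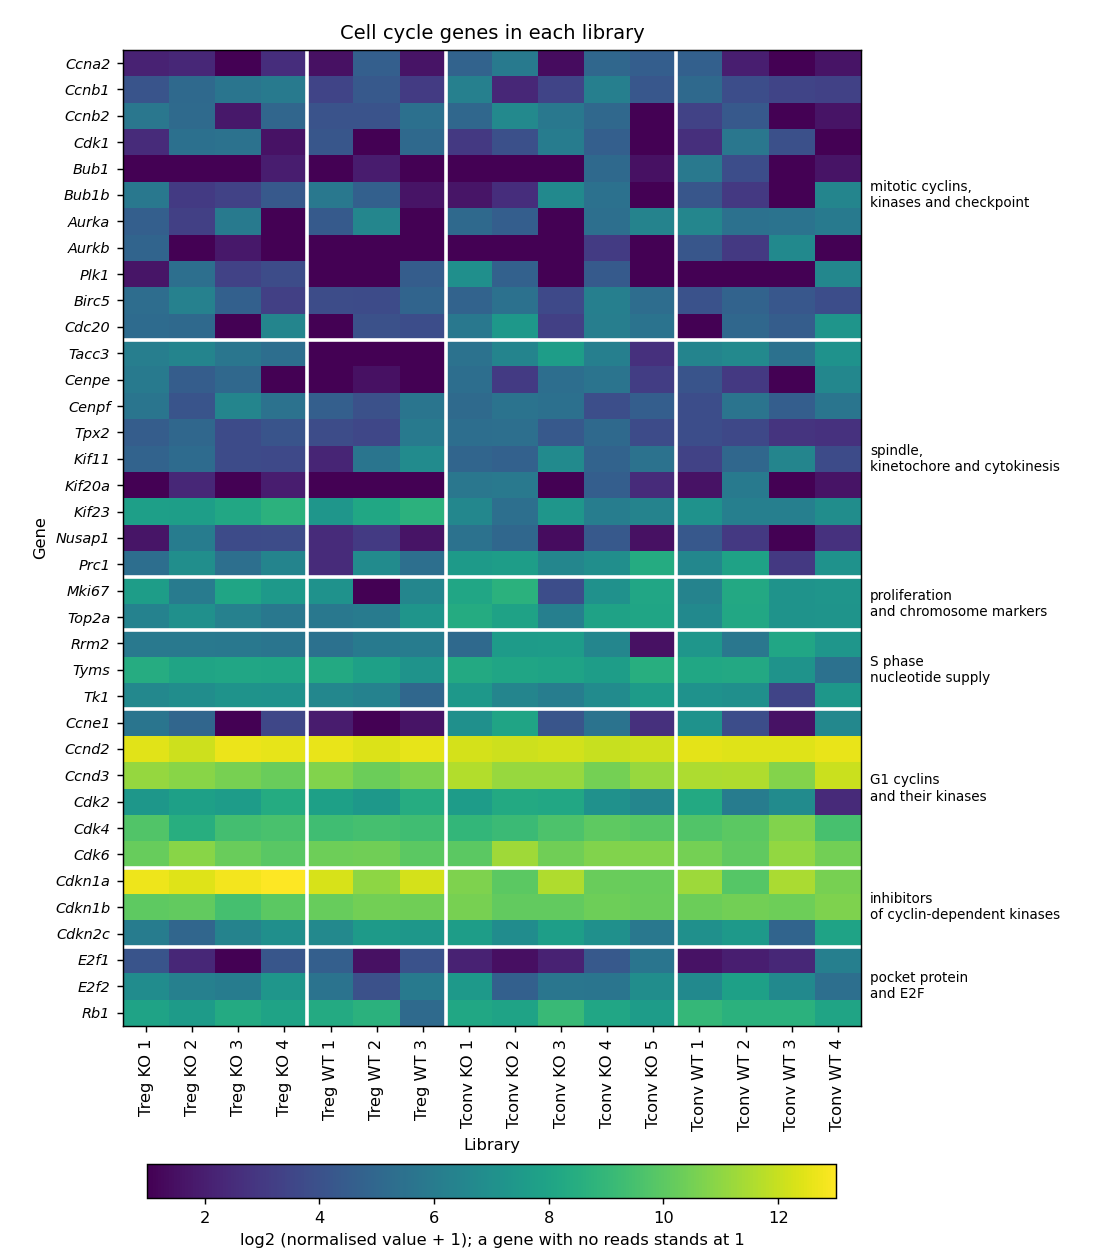
Level of each of the 37 genes (rows, grouped by role) in each of the 16 libraries (columns, by group), as log2 of the normalised value plus 1. Ccnd2, Ccnd3, Cdk4, Cdk6, Cdkn1a and Cdkn1b are read in every library, while rows such as Aurkb, Bub1, Kif20a and Plk1 are broken by libraries with no reads.

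Reads for the mitosis genes were sparse. Of the 22 genes in the roles of mitotic cyclins, kinases and checkpoint (11), spindle, kinetochore and cytokinesis (9) and proliferation and chromosome markers (2), 8 had reads in all 16 libraries, and 21 of the 37 genes did. The highest mean over all libraries among the 22 mitosis genes was 178 and the lowest 7.65. In a Treg KO library 18 to 20 of the 22 had reads, in a Treg WT library 15 or 16, in a Tconv KO library 17 to 22 and in a Tconv WT library 14 to 21. The summed level of the 22, less the 1 at which each unread gene is listed, was 1019, 1048, 1068 and 1077 in Treg KO, 518, 725 and 1063 in Treg WT, 1539.6, 1611, 990.5, 1227 and 1246 in Tconv KO, and 829.2, 1374, 728 and 1274 in Tconv WT. The 4 Treg KO libraries lay close together, while Treg WT spread widely, with the library labelled Treg WT 3 at the level of Treg KO. Without Kif23, which ran against most of the others, the sums were 660 to 837 in Treg KO, 361 to 640 in Treg WT, 833 to 1571 in Tconv KO and 656 to 1303 in Tconv WT. The sum of 640 was that of the library labelled Treg WT 3, which without Kif23 lay below each Treg KO library. Without Mki67, Top2a and Prc1 as well, the sums were 342 to 527 in Treg KO and 167 to 361 in Treg WT. In Tconv they were 296 to 722 in KO and 366 to 716 in WT. Medians of these sums were then 437 in Treg KO and 440 in Tconv WT. The library labelled Treg WT 3 (361) then lay above Treg KO 4 (342). No test was run on these sums. Besides Tacc3 and Ccnd3, described further on, exons of Ccna2, Cdc20, Kif20a, Nusap1, Prc1, Tk1, Cdk2, Cdk4 and Rb1 overlap those of a protein coding gene on the other strand, so their levels are uncertain if counting ignored strand.

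**Figure D2:**
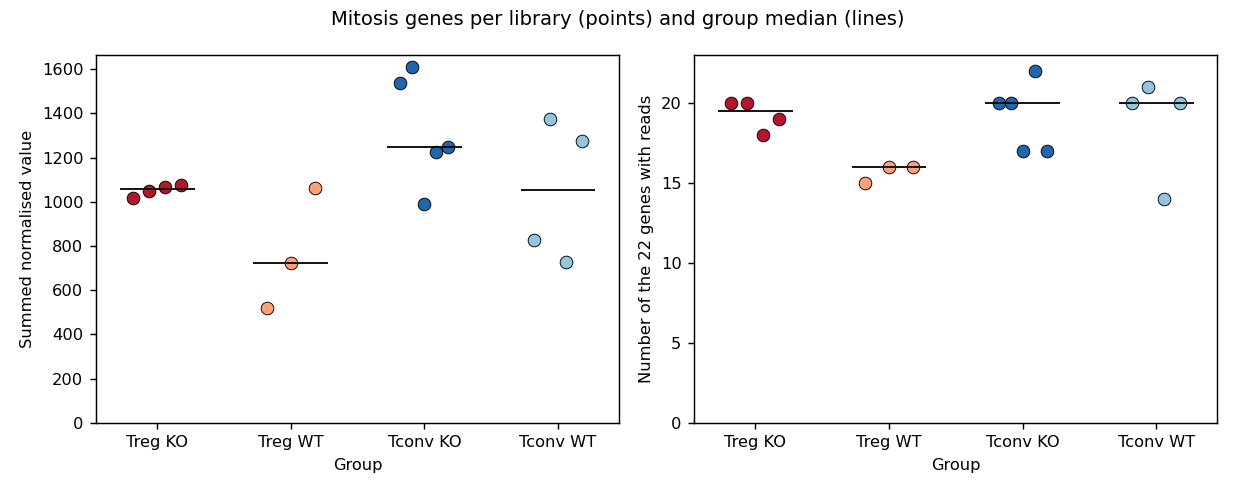
Summed normalised value of the 22 mitosis genes (left) and number of them with reads (right) in each library (points), with the group median (line), for Treg KO, Treg WT, Tconv KO and Tconv WT. Treg KO sums lie between 1019 and 1077, and Treg WT sums between 518 and 1063.

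The members that passed a test did so between the cell types. With libraries of both genotypes weighed together (7 Treg and 9 Tconv libraries, each genotype counting equally), 5 of the 37 passed in limma at an adjusted p under 0.05 (Benjamini-Hochberg over the 14319 genes). Cdkn1a and Kif23 were higher in Treg, and Tacc3, Ccnd3 and Top2a were lower. Over all genes tested 11.8% passed, 6.61% higher and 5.15% lower in Treg, so the count of 5 is close to the background and is not a result about the list. The median log2 difference, Treg minus Tconv, was −0.29 over the 37 with 12 positive, against 0.01 over all genes tested with 50.6% positive. Within KO mice 2 of the 37 passed, Cdkn1a and Kif23, both higher in Treg KO than in Tconv KO, where 6.81% of all genes passed (4.16% higher and 2.65% lower). Within WT mice 1 passed, Tacc3, lower in Treg WT than in Tconv WT, where 4.18% of all genes passed (2.20% higher and 1.98% lower). These comparisons share libraries, and a call in one bears on the others. The summed markers of CD8 T and NK cells reach higher levels in Tconv than in Treg, with overlapping ranges, and their part in these differences was not tested.

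**Figure D3:**
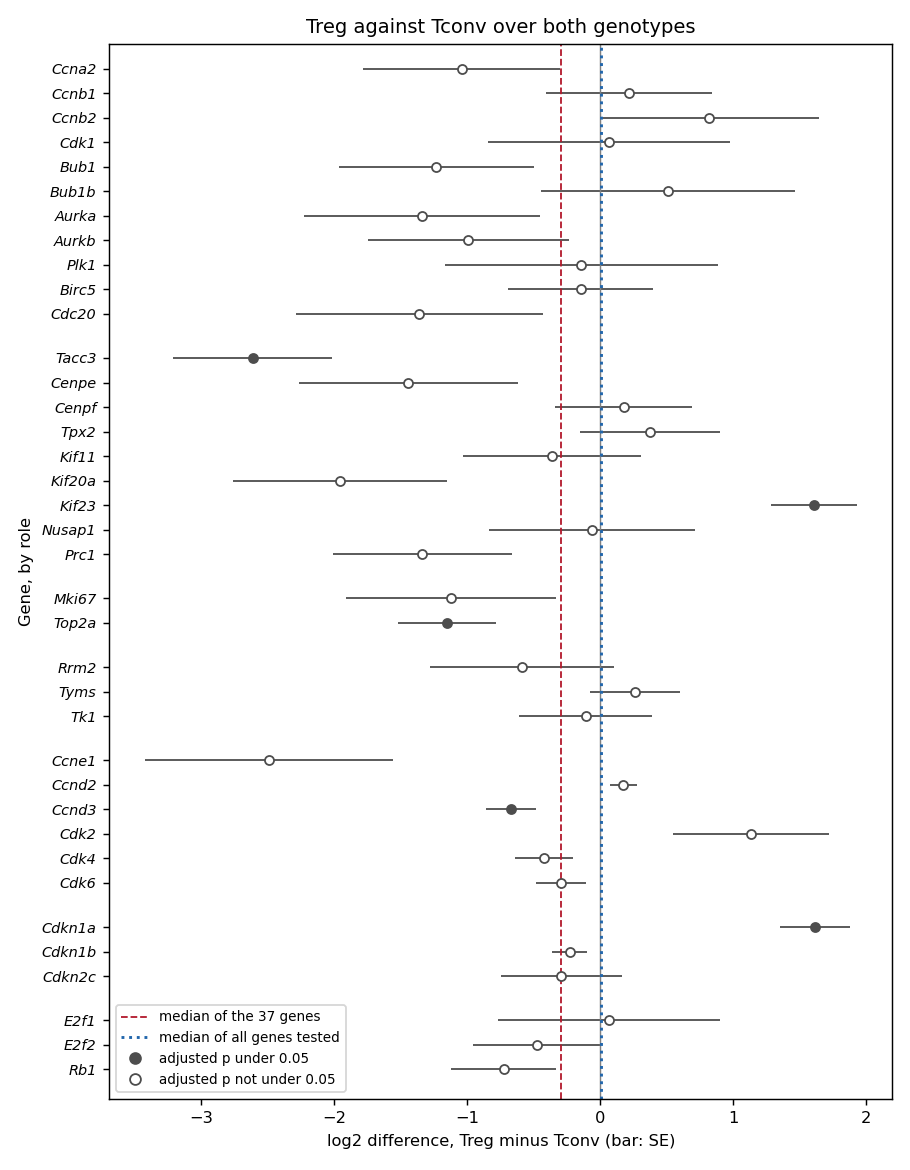
Log2 difference, Treg minus Tconv over both genotypes, with its SE, for each of the 37 genes by role; filled points passed in limma. Cdkn1a (1.62) and Kif23 (1.61) lie to the right and Tacc3 (−2.61) to the left, and the dashed line at −0.29 marks the median of the 37 genes.

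Among the inhibitors, Cdkn1a, which encodes p21 and is a well known target of p53, was the gene of the group with the smallest p in the comparison of cell types. Its mm10 position is chromosome 17, 29090976 to 29100727, plus strand. Cdkn1a read 6632, 5509, 7220 and 8280.3 in the Treg KO libraries, and 4930.0, 1994 and 4861 in the Treg WT libraries. In Tconv it read 1678, 1003, 3049.7, 1229 and 1182 in KO libraries, and 2451, 906, 2876 and 1514 in WT libraries. Each Treg KO library stood above each other library, and Treg WT 1 and the library labelled Treg WT 3 stood above all Tconv libraries, but Treg WT 2 lay within the Tconv range. Group means were 6910.3 ± 1157 in Treg KO (SD, n = 4), 3928 ± 1675 in Treg WT (n = 3), 1628 ± 833 in Tconv KO (n = 5) and 1937 ± 892 in Tconv WT (n = 4). Cdkn1a was higher in Treg over both genotypes by 1.62 on the log2 scale (SE 0.26, limma adjusted p = 0.000251) and higher in Treg KO than in Tconv KO by 2.19 (SE 0.35, limma adjusted p = 0.000391). Both calls held under every alternative run. Within WT mice the difference was 1.04 (SE 0.40, limma adjusted p = 0.170), which did not pass, though it passed with the replicate block, without Treg WT 2, and when Tconv KO 3, Tconv WT 1 and Tconv WT 3 were left out together. An exon of Cdkn1a overlaps the transcript AC167363.2 (biotype TEC) on the other strand, whose reads cannot be told apart if counting ignored strand.

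The other inhibitors did not pass. Cdkn1b, which encodes p27, read 720.3 to 1129 in Treg KO, 1177 to 1405 in Treg WT, 1104 to 1485 in Tconv KO and 1275 to 1631 in Tconv WT. Its Treg KO libraries all lay below the Treg WT libraries (difference −0.44, SE 0.20, limma adjusted p = 0.779). Cdkn2c, which encodes p18, an inhibitor of Cdk4 and Cdk6, averaged 75.8 ± 40.0 in Treg KO, 149 ± 44.2 in Treg WT, 143 ± 66.5 in Tconv KO and 147 ± 93.6 in Tconv WT.

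**Figure D4:**
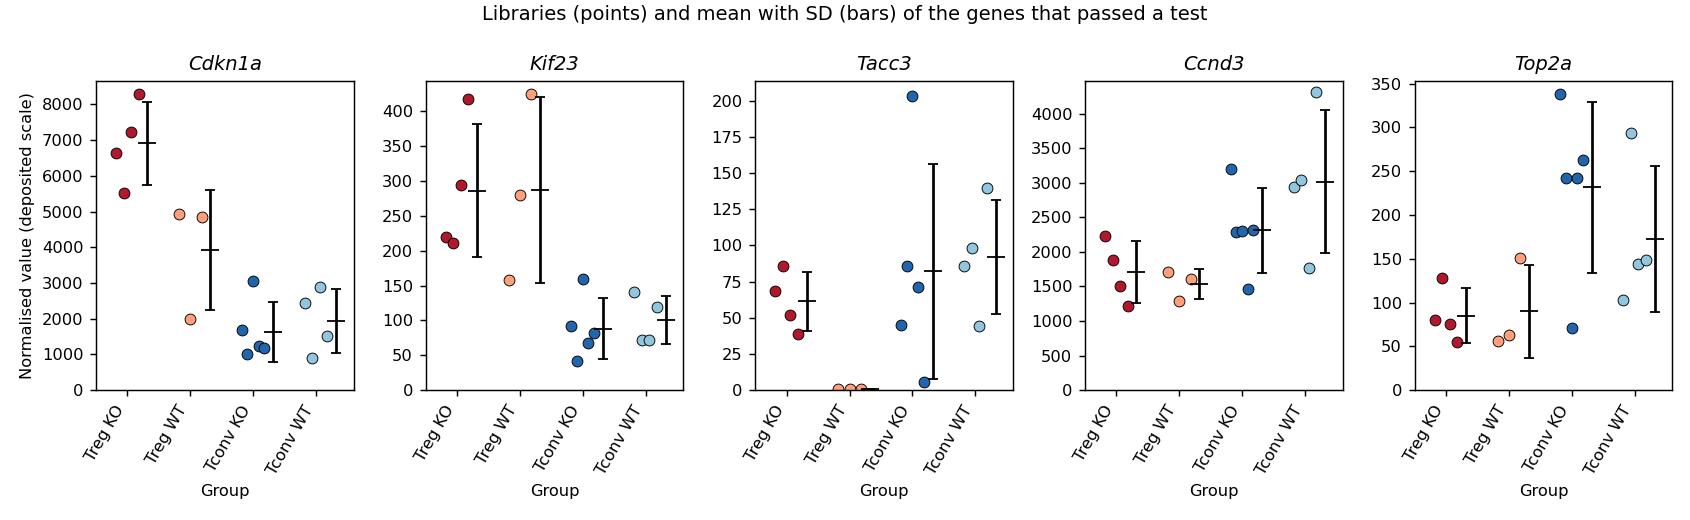
Normalised value of the 5 genes that passed in any comparison, in each library (points) and as the group mean with SD (bars), for Treg KO, Treg WT, Tconv KO and Tconv WT. Cdkn1a lies between 5509 and 8280.3 in Treg KO and at or under 3049.7 in all Tconv libraries, and Tacc3 has no reads in the 3 Treg WT libraries.

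Of the G1 cyclins and their kinases, Ccnd3 was lower in Treg. Ccnd3 encodes cyclin D3, which developing thymocytes need to expand, and lies on chromosome 17 at 47505051 to 47599691 (plus strand). It read 2229.9, 1882, 1503 and 1215 in Treg KO and 1705, 1283 and 1613 in Treg WT. In Tconv it read 3196, 2282, 2298, 1462 and 2312 in KO libraries and 2942, 3033, 1772 and 4315 in WT libraries. Tconv KO 4 and Tconv WT 3 lay inside the Treg range, and the other 7 Tconv libraries lay above all Treg libraries. The difference over both genotypes was −0.67 (SE 0.19, limma adjusted p = 0.0228). It was −0.43 within KO mice (SE 0.25, limma adjusted p = 0.387) and −0.92 within WT mice (SE 0.28, limma adjusted p = 0.0782). Within WT mice it passed under quantile normalisation, without Tconv WT 3, and without Tconv KO 3, Tconv WT 1 and Tconv WT 3 together, at adjusted p = 0.0470, 0.0189 and 0.0344 in limma, in a range of 0.0189 to 0.210 over the alternatives. The call over both genotypes was lost without Treg KO 4, without Treg WT 2 or without Tconv WT 4, at adjusted p = 0.0531, 0.0560 and 0.0510 in limma, in a range of 0.00484 to 0.0560 over the alternatives. An exon of Ccnd3 overlaps Bysl on the other strand.

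Ccnd2 encodes cyclin D2, which T cells induce when they are activated. It read 5644, 4329, 6442 and 6082 in Treg KO, 6359, 5313 and 6134 in Treg WT, 4822, 4359.7, 4726, 4087 and 4447 in Tconv KO, and 5789, 5451, 5506 and 6378 in Tconv WT. All Tconv KO libraries lay below all Tconv WT libraries while the Treg groups overlapped. Its difference between Tconv KO and Tconv WT, −0.36 (SE 0.13), had the smallest p of the 37 in that comparison but did not pass (limma adjusted p = 0.858). Ccne1, which encodes cyclin E1 and acts at entry into S phase, read 1.00 to 49.2 in Treg KO, 1.00 to 2.83 in Treg WT, 5.44 to 259 in Tconv KO and 2.01 to 139.5 in Tconv WT. It did not pass between the cell types over both genotypes (−2.49, SE 0.93, limma adjusted p = 0.0944). Its kinase Cdk2 averaged 232 ± 73.9 in Treg KO, 248 ± 91.6 in Treg WT, 205 ± 97.2 in Tconv KO and 125 ± 136 in Tconv WT, the last group holding both 317 and 4.38. Cdk4 and Cdk6, the partners of the D-type cyclins, did not pass in any comparison. Cdk4 averaged 670.0 ± 214 in Treg KO, 667 ± 38.0 in Treg WT, 779 ± 232 in Tconv KO and 1074 ± 427 in Tconv WT, and Cdk6 averaged 1325 ± 404 in Treg KO, 1232 ± 183 in Treg WT, 1661 ± 567 in Tconv KO and 1526 ± 427 in Tconv WT.

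The retinoblastoma gene and the E2F genes did not pass in any comparison. Rb1, whose protein binds E2F and keeps cells in G1, read 195 to 321 in Treg KO, 34.1 to 408 in Treg WT, 200 to 567 in Tconv KO and 259 to 520.0 in Tconv WT. The lowest Rb1 value was that of the library labelled Treg WT 3. E2f1 and E2f2 encode activating E2F factors. E2f1 was low, at 1.00 to 17.5 in Treg KO, 1.87 to 23.8 in Treg WT, 1.78 to 50.8 in Tconv KO and 2.03 to 70.8 in Tconv WT. E2f2 averaged 103 ± 42.0 in Treg KO, 41.1 ± 23.8 in Treg WT, 83.5 ± 60.7 in Tconv KO and 118 ± 76.6 in Tconv WT, and each Treg KO library read above each Treg WT library (1.43, SE 0.72, limma adjusted p = 0.814).

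The S phase genes Tyms (thymidylate synthase), Tk1 (thymidine kinase) and Rrm2 (the small subunit of ribonucleotide reductase) make or salvage nucleotides for DNA synthesis, and none passed in any comparison. Tyms averaged 288 ± 39.0 in Treg KO, 225 ± 84.2 in Treg WT, 282 ± 61.5 in Tconv KO and 195 ± 125 in Tconv WT. Tk1 averaged 123 ± 21 in Treg KO, 67.5 ± 32.7 in Treg WT, 125 ± 53.4 in Tconv KO and 109.7 ± 68.4 in Tconv WT. Rrm2 held a narrow range in the Treg libraries, 49.6 to 57.8 in KO and 43.9 to 66.1 in WT, and a wide one in Tconv, 1.89 to 199.9 in KO and 53.8 to 275 in WT. The Treg range of Rrm2 thus lay inside the Tconv range (difference over both genotypes −0.59, SE 0.69, limma adjusted p = 0.679).

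Kif23 was the mitosis gene that was higher in Treg. It encodes a kinesin of the spindle midzone that, bound to Racgap1, forms the centralspindlin complex needed to divide the cytoplasm, and it lies on chromosome 9 at 61915905 to 61946774 on the minus strand. Kif23 read 220.4, 211, 294 and 418 in Treg KO and 158, 280.1 and 424 in Treg WT. In Tconv it read 92.2, 41.5, 159, 67.2 and 81.8 in KO libraries and 141, 72.0, 72.5 and 119 in WT libraries. Every Treg library but Treg WT 1 stood above every Tconv library, and Treg WT 1 was level with Tconv KO 3. Kif23 was higher in Treg over both genotypes by 1.61 (SE 0.32, limma adjusted p = 0.00204) and higher in Treg KO than in Tconv KO by 1.76 (SE 0.43, limma adjusted p = 0.0137). Within WT mice the difference was 1.45 (SE 0.49) and did not pass (limma adjusted p = 0.111). The call within KO mice was lost without Treg KO 4 and with limma-voom on reads, at adjusted p = 0.0692 and 0.0638, in a range of 0.00544 to 0.0692 over the alternatives. Treg KO and Treg WT did not differ beyond their spread (0.05, SE 0.49). No exon of another annotated gene overlaps those of Kif23.

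Tacc3 and Top2a were lower in Treg. Tacc3 encodes a spindle protein that binds microtubules with clathrin and lies on chromosome 5 at 33658128 to 33678995 (plus strand). It read 68.5, 85.5, 52.0 and 38.9 in Treg KO, and had no reads in any of the 3 Treg WT libraries. In Tconv it read 44.8, 85.9, 203, 71.2 and 5.44 in KO libraries and 85.8, 98.4, 44.3 and 139 in WT libraries. The Treg WT libraries stood apart from all others, while Treg KO lay inside the Tconv range. Against a floor of 3 reads per library, Tacc3 was at least 23.7-fold lower in Treg WT than in Tconv WT (fitted difference −5.43, SE 0.90, limma adjusted p = 0.00128). With limma-voom this call was lost at adjusted p = 0.0631, in a range of 0.000117 to 0.0631 over the alternatives. Over both genotypes the difference was −2.61 (SE 0.60, limma adjusted p = 0.00585), a mean of a large difference in WT and one of 0.20 in KO (SE 0.79, limma adjusted p = 0.943), and it was −4.08 with limma-voom on reads. An exon of Tacc3 overlaps Tmem129, a protein coding gene on the other strand, so reads of these genes cannot be told apart if counting ignored strand.

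Top2a encodes topoisomerase II alpha, which untangles chromosomes before they part, and lies on chromosome 11 at 98992943 to 99024189 on the minus strand, where a small nucleolar RNA gene (Gm23451) overlaps an exon. It read 80.6, 129, 76.0 and 54.5 in Treg KO and 55.8, 62.9 and 151 in Treg WT. In Tconv it read 338, 243, 71.3, 243 and 263 in KO libraries and 103, 293, 144 and 148 in WT libraries. All Tconv KO libraries but the deepest, Tconv KO 3, stood above all Treg libraries, whereas Tconv WT overlapped Treg. Top2a was lower in Treg over both genotypes by a difference of −1.15 (SE 0.37, limma adjusted p = 0.0467). This call was lost in 16 of 23 alternatives, with limma adjusted p from 0.00751 to 0.369 over all 23. Within KO mice the difference was −1.34 (SE 0.49, limma adjusted p = 0.118), and it passed without Tconv KO 3. Mki67, whose product Ki-67 is the usual marker of dividing cells, read 206, 62.5, 263 and 183 in Treg KO, and 137, 1.00 and 90.3 in Treg WT. In Tconv, Mki67 read 272, 401, 13.2, 136 and 271 in KO libraries and 82.7, 305, 142 and 154 in WT libraries. Treg WT 2, in a library of 8.20 M reads, had none for Mki67, and its lowest Tconv value was again that of Tconv KO 3.

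The 11 mitotic cyclins, kinases and checkpoint genes gave 0 calls in each of the 6 comparisons. Over both genotypes 4 of the 11 differences were positive and 7 negative, with a median of −0.15. Ccnb1, the mitotic cyclin B1, averaged 39.9 ± 19.0 in Treg KO, 12.4 ± 6.16 in Treg WT, 35.7 ± 34.6 in Tconv KO and 16.3 ± 11.3 in Tconv WT. Ccnb2, cyclin B2, read 2.42 to 54.0 in Treg KO, 15.6 to 41.8 in Treg WT, 1.00 to 98.4 in Tconv KO and 1.00 to 19.3 in Tconv WT. Their kinase Cdk1 read 1.97 to 44.9 in Treg KO, 1.00 to 33.0 in Treg WT, 1.00 to 65.6 in Tconv KO and 1.00 to 53.8 in Tconv WT, so all 4 groups overlapped. Ccna2, cyclin A2, read 1.00 to 4.89 in Treg KO, 1.91 to 23.7 in Treg WT, 1.63 to 60.2 in Tconv KO and 1.00 to 24.8 in Tconv WT, and within KO mice its difference was −2.35 (SE 0.98, limma adjusted p = 0.186).

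Of the mitotic kinases, Aurka, which builds spindle poles, averaged 23.2 ± 25.8 in Treg KO, 37 ± 46.8 in Treg WT, 35.9 ± 29.4 in Tconv KO and 59.8 ± 21.2 in Tconv WT. Aurkb, the kinase that corrects attachments of chromosomes, read 28.7, 1.00, 2.42 and 1.00 in Treg KO, 1.00 in each Treg WT library, 1.00, 1.00, 1.00, 7.38 and 1.00 in Tconv KO, and 17.5, 7.09, 104 and 1.00 in Tconv WT. Most libraries thus had no reads for Aurkb, and single libraries set the group means. Plk1, which acts from mitotic entry to cytokinesis, ran from 2.21 to 40.9 in Treg KO, 1.00 to 22 in Treg WT, 1.00 to 124 in Tconv KO and 1.00 to 94.4 in Tconv WT. Birc5 (survivin), a partner of Aurkb, had reads in all 16 libraries and averaged 37.5 ± 29.5 in Treg KO, 17.9 ± 9.22 in Treg WT, 38.5 ± 22.3 in Tconv KO and 18.6 ± 6.18 in Tconv WT. The spindle checkpoint genes were uneven too. Bub1 had at most 2.95 in any Treg library, against 33.7 in Tconv KO 4 and 56.8 in Tconv WT 1. Bub1b averaged 22.8 ± 22.3 in Treg KO, 27.2 ± 26.5 in Treg WT, 31.3 ± 44.5 in Tconv KO and 28.3 ± 40.2 in Tconv WT. Cdc20, the activator of the anaphase-promoting complex that the checkpoint holds back, averaged 39.2 ± 35.4 in Treg KO, 9.70 ± 7.59 in Treg WT, 70.2 ± 60.7 in Tconv KO and 51.9 ± 68.6 in Tconv WT.

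The spindle, kinetochore and cytokinesis genes beside Kif23 and Tacc3 did not pass. Cenpe, a kinetochore motor, read 58.9, 22.5, 32.2 and 1.00 in Treg KO, 1.00, 1.87 and 1.00 in Treg WT, 39.9, 7.23, 40.2, 48.1 and 8.11 in Tconv KO, and 16.5, 7.09, 1.00 and 93.3 in Tconv WT. Its Treg WT libraries held 1 read in all, and Treg KO 4 held none. Tpx2, which activates Aurka on the spindle, read 22.7, 31.7, 12.3 and 16.6 in Treg KO, 12.9, 10.6 and 60.5 in Treg WT, 39.9, 41.5, 19.8, 32.9 and 12.5 in Tconv KO, and 13.4, 11.1, 6.03 and 5.5 in Tconv WT. The Tconv groups overlapped through Tconv KO 5 and Tconv WT 1. Cenpf, another kinetochore protein, averaged 50 ± 29.7 in Treg KO, 29.4 ± 18 in Treg WT, 32.1 ± 13.4 in Tconv KO and 33.7 ± 18.3 in Tconv WT. Kif11, the motor that pushes spindle poles apart, averaged 22 ± 12 in Treg KO, 54.6 ± 53.4 in Treg WT, 46.8 ± 35.0 in Tconv KO and 35.4 ± 36.8 in Tconv WT. Nusap1, which bundles spindle microtubules, averaged 22.8 ± 27.9 in Treg KO, 4.62 ± 2.50 in Treg WT, 19.8 ± 18.8 in Tconv KO and 8.04 ± 7.48 in Tconv WT. The midzone genes Prc1 and Kif20a had their highest values in Tconv. Prc1 averaged 71.6 ± 39.6 in Treg KO, 51.8 ± 53.6 in Treg WT, 189 ± 96.1 in Tconv KO and 121 ± 97.3 in Tconv WT (difference over both genotypes −1.34, SE 0.67, limma adjusted p = 0.239). Kif20a had at most 4.07 in a Treg library, against 56.3 in Tconv KO 2 and 61.9 in Tconv WT 2, and its difference over both genotypes, −1.96 (SE 0.80), did not pass (limma adjusted p = 0.132).

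Between KO and WT no member passed in either cell type. In Treg 0 of 37 passed, where 0.0210% of all genes tested passed (3 genes), and 4 members had an unadjusted p under 0.05, as had 890 of all genes. The median log2 difference, Treg KO minus Treg WT, was 0.33 over the 37 with 23 positive, against 0.08 over all genes tested with 55.7% positive. With the 3 genes unread in Treg WT set to their bounds, the median of the 37 was 0.13. That fall came from Kif20a, whose difference went from 0.58 to −0.79. The Treg KO mean of Kif20a, 2.25, lay under the Treg WT floor of 3.89, so its bound gives no direction. Tacc3 had the smallest p of the 37. Its Treg KO libraries read 38.9 to 85.5, and Treg WT was unread. With 3 reads per library as the floor, the level in Treg KO was at least 15.7-fold that in Treg WT, at a fitted difference of 4.90 (SE 0.90, limma adjusted p = 0.104). It passed with no added pseudocount (adjusted p = 0.0270) and without Tconv KO 5 (0.0086), in a range of 0.0086 to 0.965 over the alternatives. Cenpe came next, at 2.95 (SE 1.24, limma adjusted p = 0.741), and then Cdkn1a, at 0.91 (SE 0.40, limma adjusted p = 0.765). For Cdkn1a each Treg KO library stood above each Treg WT library, and without Treg WT 2, the lowest Treg library, the difference was 0.48. Since each Treg KO library has reads for more genes of any kind than each Treg WT library, genes unread in Treg WT stand on the same side as that shift, and its part in these values was not tested.

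In Tconv 0 of 37 passed and 0% of all genes passed, and 4 members had an unadjusted p under 0.05, as had 781 of all genes. The median log2 difference, Tconv KO minus Tconv WT, was 0.18 over the 37 with 21 positive, against 0.02 over all genes tested with 51.7% positive. The 3 members with the smallest p were Ccnd2, Aurkb (−2.32, SE 1.00, limma adjusted p = 0.887) and Tpx2 (1.56, SE 0.69, limma adjusted p = 0.897). Aurkb rested on reads in Tconv KO 4 and in Tconv WT 1, 2 and 3. The macrophage and neutrophil markers of Tconv WT 1 and the red cell markers of Tconv WT 3 stand on the WT side of this comparison, and Aurkb has its highest Tconv values there (17.5 and 104). Its difference was −1.33 without Tconv WT 3, −0.49 when Tconv KO 3, Tconv WT 1 and Tconv WT 3 were left out together, and −4.48 with limma-voom on reads. The part of macrophages, neutrophils or red cells in the Aurkb values was not tested.

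**Figure D5:**
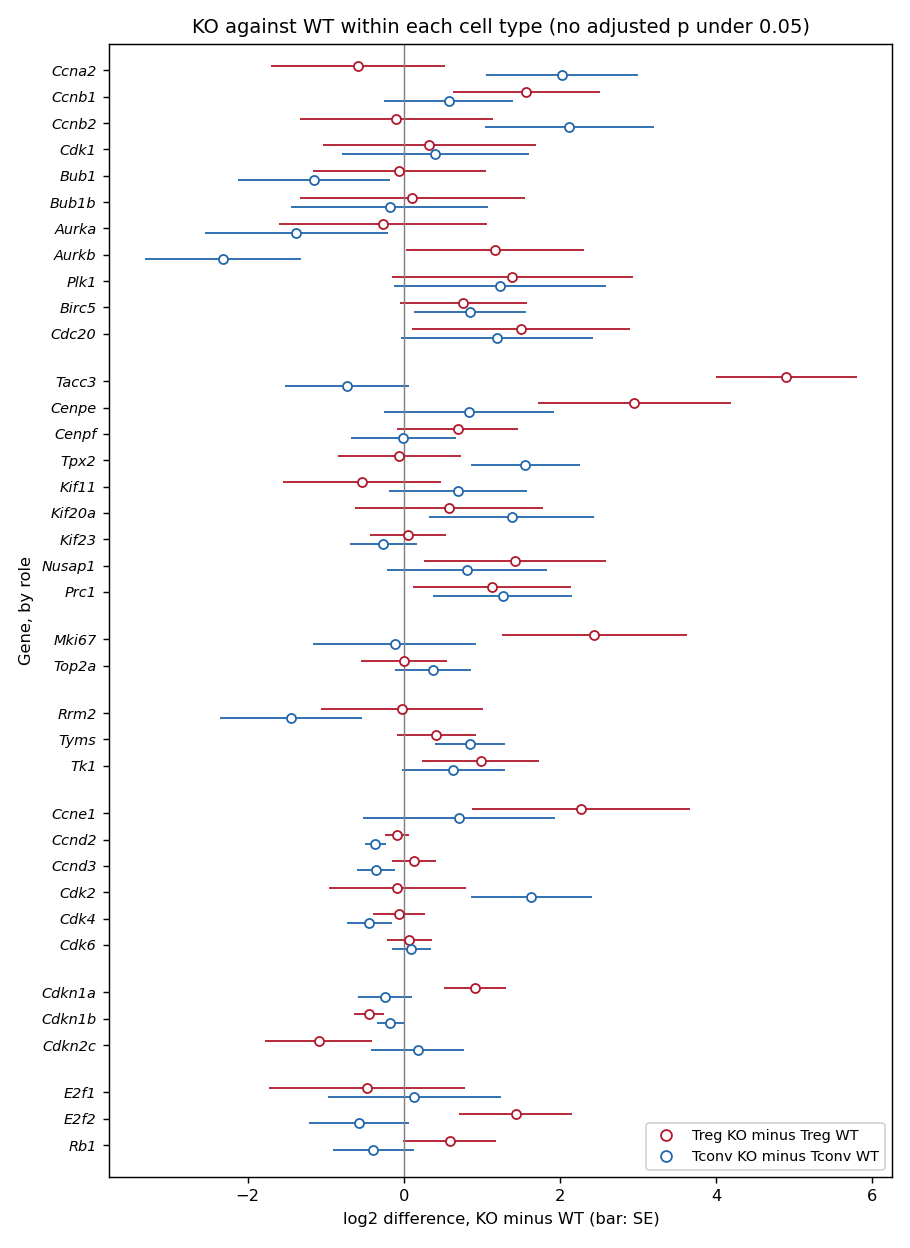
Log2 difference, KO minus WT, with its SE, for each of the 37 genes by role, in Treg and in Tconv. Tacc3 in Treg lies farthest to the right, at 4.90, and no point passed in limma.

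Whether the deletion acted differently in the cell types was tested as the effect in Treg minus the effect in Tconv. Of the 37, 0 passed, as did 0% of all genes, and 3 members had an unadjusted p under 0.05, as had 748 of all genes. Tacc3 gave 5.63 (SE 1.20, limma adjusted p = 0.552), from the contrast of Treg WT with the other groups. Aurkb gave 3.49 (SE 1.51) and Cdkn1a 1.15 (SE 0.53), both at a limma adjusted p of 0.928. The value for Aurkb was 1.66 without Tconv KO 3, Tconv WT 1 and Tconv WT 3 and 6.66 with limma-voom on reads, and that for Cdkn1a was 0.72 without Treg WT 2. For Cdkn1a the means were 6910.3 in Treg KO and 3928 in Treg WT, and 1628 in Tconv KO and 1937 in Tconv WT.

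Other genes of the cell cycle were read from lists of 4 kinds. Of 57 other mitosis genes in the table, 53 were tested, and over both genotypes 4 were lower and 0 higher in Treg, with 10 of 53 differences positive and a median of −0.63. Of all genes tested 5.15% were lower and 6.61% higher in Treg, so the number that passed lies near that share, with 50.6% of differences positive and a median of 0.01. The genes that were lower were Racgap1, the partner of Kif23 in centralspindlin (119 ± 63.2 in Treg and 473 ± 156 in Tconv, limma adjusted p = 0.000282), the chromatin protein Hmgb2 (703 ± 155 in Treg and 1260.0 ± 190.1 in Tconv), the condensin subunit Smc2 (101.0 ± 74.4 in Treg and 203 ± 90.2 in Tconv), and Incenp, the scaffold of the Aurkb complex (79.7 ± 74.7 in Treg and 193 ± 58.1 in Tconv). Racgap1 read at the same level in both Treg groups, 119.9 ± 83.4 in KO and 119 ± 39.4 in WT, against 549.8 ± 138 in Tconv KO and 378 ± 134 in Tconv WT. Kif23 and Racgap1 thus differed in opposite directions between the cell types, at 1.61 (SE 0.32) and −2.04 (SE 0.34). Within KO mice 4 were lower in Treg, Racgap1, Hmgb2, the condensin subunit Smc4 (713 ± 241 in Treg KO and 1321 ± 149.7 in Tconv KO) and the spindle gene Ckap2l, which had no reads in Treg KO and averaged 20.2 ± 12.8 in Tconv KO. Of all genes tested 2.65% were lower and 4.16% higher in Treg within KO mice. Within WT mice Smc2 and Hmgb2 were lower in Treg, where 1.98% of all genes tested were lower and 2.20% higher.

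Among 25 tested genes of a list named for other G1 and S entry genes, 5 were lower in Treg over both genotypes and 1 higher. Of all genes tested 5.15% were lower and 6.61% higher. The list is broader than its name, since it also holds Cdc27 and Cdc25b, whose roles are given below. Cdc7, the kinase that fires replication origins, averaged 42.6 ± 17.2 in Treg and 155 ± 61.5 in Tconv (−1.85, SE 0.34, limma adjusted p = 0.000829). Its activator Dbf4 averaged 275 ± 59.5 in Treg and 468 ± 158 in Tconv (limma adjusted p = 0.0420) and was named after its values were seen. Also lower were Cdk7, the kinase that activates other cyclin-dependent kinases (136 ± 54.9 in Treg and 284 ± 68.9 in Tconv) and Cdc27, a subunit of the anaphase-promoting complex (144 ± 66.1 in Treg and 264 ± 78.7 in Tconv). Cdc25b, a phosphatase that activates Cdk1, was higher (1131 ± 321 in Treg and 674 ± 250.5 in Tconv), a gene also named after its values were seen. Within KO mice Cdc7 and Cdk7 were lower in Treg, where 2.65% of all genes tested were lower. Within WT mice Cdc27 was lower in Treg, where 1.98% of all genes tested were. Exons of Cdc25b overlap those of Spef1.

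Of 20 tested genes on a list named for other cell cycle inhibitors, 4 were higher and 1 lower in Treg over both genotypes. Of all genes tested 6.61% were higher and 5.15% lower. As a list these genes leaned the other way, with 7 differences positive and 13 negative and a median of −0.22, against 0.01 over all genes tested. The list is broader than its name, since it also holds Mdm2, so this median is not one of inhibitors alone. Gadd45b, a stress gene, averaged 5179.8 ± 1806 in Treg and 1486 ± 754 in Tconv (1.85, SE 0.27, limma adjusted p = 9.34e-05). Sesn1 averaged 665 ± 206 in Treg and 251 ± 97.1 in Tconv (1.41, SE 0.25, limma adjusted p = 0.000642). Klf4, a transcription factor that raises p21 in other cells, averaged 3070.4 ± 978 in Treg and 1184 ± 640.1 in Tconv (1.41, SE 0.28, limma adjusted p = 0.00196), and Tob2, an antiproliferative protein, was higher by 0.74 (SE 0.17, limma adjusted p = 0.00651). Ccng2, the atypical cyclin G2, was lower (328 ± 112 in Treg and 582 ± 115 in Tconv, limma adjusted p = 0.00895). The same 5 passed in the same directions within KO mice, where 6.81% of all genes passed, and Gadd45b alone within WT mice, where 4.18% did. No other gene of this list passed in any comparison. Of 20 cell cycle transcription regulators, Myc (947 ± 389 in Treg and 407 ± 124 in Tconv, limma adjusted p = 0.00554) and Lin54, a subunit of the MuvB complex (272 ± 105 in Treg and 137 ± 48.1 in Tconv, limma adjusted p = 0.0137), were higher in Treg over both genotypes. Of the differences of these 20 regulators, 9 were positive and 11 negative, with a median of −0.31. None of the genes on these 4 lists passed between KO and WT in Treg or Tconv or in the difference of these effects in limma.

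Promoters were read because many mitosis genes are known to share a cell cycle homology element, TTTGAA, near their start, which the MuvB complex binds, and CCAAT boxes upstream of it. RefSeq promoters (GRCm38.p6, 250 bases before to 50 after the annotated start) were found for 31 of the 37 genes. On either strand, TTTGAA was found in 13 of the 31, against 17.9% of 32851 promoters of that length, and CCAAT in 21 of the 31, against 37.4%. Both were found in 13, against 6.95%, and these 13 comprised 12 of the 18 mitosis genes with a promoter and E2f2. The promoters of Kif23, higher in Treg, of Top2a, lower in Treg, and of Cdk1, which did not pass, are shown because all 3 hold both motifs. They lie on the minus strand at chr9:61946750-61947049 (Kif23), chr10:69352863-69353162 (Cdk1) and chr11:99024140-99024439 (Top2a). TTTGAA and CCAAT, and their reverse complements TTCAAA and ATTGG, are in capitals.
Kif23: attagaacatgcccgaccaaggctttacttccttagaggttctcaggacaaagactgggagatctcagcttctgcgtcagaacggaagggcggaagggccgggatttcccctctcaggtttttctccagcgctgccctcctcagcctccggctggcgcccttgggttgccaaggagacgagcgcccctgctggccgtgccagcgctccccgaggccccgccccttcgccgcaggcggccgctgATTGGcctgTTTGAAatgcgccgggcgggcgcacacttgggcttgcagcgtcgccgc
Cdk1: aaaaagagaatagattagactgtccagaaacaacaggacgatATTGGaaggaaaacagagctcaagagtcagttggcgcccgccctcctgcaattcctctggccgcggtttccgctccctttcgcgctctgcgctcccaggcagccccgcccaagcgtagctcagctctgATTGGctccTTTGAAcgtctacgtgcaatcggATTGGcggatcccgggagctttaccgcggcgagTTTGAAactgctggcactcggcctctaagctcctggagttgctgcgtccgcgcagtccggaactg
Top2a: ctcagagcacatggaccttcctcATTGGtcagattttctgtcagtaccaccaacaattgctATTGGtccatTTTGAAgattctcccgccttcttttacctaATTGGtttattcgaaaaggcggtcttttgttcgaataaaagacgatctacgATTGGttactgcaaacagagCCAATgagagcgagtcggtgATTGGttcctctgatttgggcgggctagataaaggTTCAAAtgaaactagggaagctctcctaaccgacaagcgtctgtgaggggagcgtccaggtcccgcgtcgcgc
The 12 mitosis genes whose promoter held both motifs gave 5 positive and 7 negative differences between Treg and Tconv over both genotypes, with a median of −0.25. The 6 mitosis genes whose promoter did not hold both, Tacc3 among them, gave 1 positive and 5 negative, with a median of −0.69. Of the 12 with both motifs only Kif23 (higher) and Top2a (lower) passed, and the Top2a call was lost in 16 of 23 alternatives. The differences of the others did not pass. Their signs therefore cannot tell whether genes with both motifs share a direction. A match of letters is not a bound site.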

How the data were processed

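Sorted Treg and Tconv RNA (10 ng per library, SMART-seq2, NextSeq 500, bcl2fastq2 2.20, per the labels' protocols) gave 16 libraries. The sources used here give no sort markers, annotation or strand setting. DESeq2, kallisto 0.44, CASAVA 1.8, R 3.3.1, Partek 6.6 and the build mm10 are listed, with no roles, per the submitters' processing notes. The deposited table holds a normalised signal per gene, made by the authors, whose values are read counts divided by a library size factor, plus 1: from the steps between low values, 100% of values under 1000 reads were whole numbers of reads (tolerance 0.1), which gave read totals and floors (the value of 3 reads, counting error only). Groups came from the sample titles.

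Values were analysed as log2 (value + 1), a scale that understates changes of low genes. The 14319 genes that reached 10 in 3 or more libraries entered 1 limma fit (version 3.58.1, R 4.3.3, trend on) of all 4 groups, which are small and so share their spread estimate. The 6 comparisons were 2-sided, with Benjamini-Hochberg adjustment over all genes and a threshold of 0.05, and the code was tested on simulated data. The planned edgeR and DESeq2 fits were not run, and limma-voom on the recovered reads was run in their place.

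The 37 genes and the other lists were chosen with earlier results of these data known. Every member is named. Values in every library are given for members that passed in any comparison and for the 3 smallest p-values in each, and from each other list up to 4 genes that passed are named in each comparison by smallest p, with others marked as named after their values were seen, where 1 gene that is counted is not reported here by name. Positions and exon overlaps are from GENCODE M21 on mm10, where 16 of the 37 overlap an exon of another gene, 11 of them a protein coding one. Promoter sequences are from RefSeq.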

Additional observations from a re-analysis of the deposited data

Results flagged for a closer look

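Of 111 groups of 4 or 5 libraries tested for a single library far from the others, 10 were picked out, where chance picks out about 1 in 20. That rate does not hold where the other libraries of a group have no reads, since any library with reads then stands apart. Among mitosis genes, Tconv KO 5 had no reads for Ccnb2 (1.00, others 31.4 to 98.4), Tconv KO 3 stood low for Top2a (71.3, others 243 to 338), and Plk1 stood at 94.4 in Tconv WT 4 with no reads in the other Tconv WT libraries. Bub1 stood at 2.95 in Treg KO 4 and at 33.7 in Tconv KO 4, Aurkb at 7.38 in Tconv KO 4, and Kif20a at 61.9 in Tconv WT 2, each with the rest of its group between 1.00 and 2.13. The Bub1 value in Treg KO 4 rested on 2 reads, under the floor of 3 reads. Among the S phase and E2F genes, Tyms stood high in Treg KO 1 (346, others 262 to 273), Tk1 low in Tconv WT 3 (10.1, others 127 to 165) and E2f1 high in Tconv WT 4 (70.8, others 2.03 to 4.02).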

How the results depend on the processing

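No direction reversed among the differences recomputed under the alternatives, which cover the members with a call or with the 3 smallest p-values in a comparison (Aurkb, Ccnd2, Ccnd3, Cdkn1a, Cenpe, Kif23, Tacc3, Top2a and Tpx2), and the other members were not recomputed singly. The count of members that passed was 0 between Treg KO and Treg WT, but 1 with a pseudocount of 0, and 0 to 1 when single libraries were left out. Between Treg WT and Tconv WT it was 1, but 0 by limma-voom on reads, 2 under quantile normalisation, 4 when Tconv KO 3, Tconv WT 1 and Tconv WT 3 were all left out, and 1 to 2 without single libraries. Between Treg KO and Tconv KO it was 2, but 1 by limma-voom, 4 without these 3 libraries, and 1 to 4 without single libraries, with 1 without Treg KO 4 and 4 without Tconv KO 3. Over both genotypes it was 5, and 8 without these 3 libraries (Kif20a, Prc1 and Cdk2 were added). Without single libraries it was 3 to 6, with 3 without Treg KO 4, Treg WT 2 or Tconv WT 4. Without these 3 libraries the calls over all genes fell from 1684 to 1488 over both genotypes and from 599 to 536 within WT mice. Within KO mice they rose from 975 to 1017. The rise in members over both genotypes and within WT mice thus did not follow the count over all genes. The count of members stayed at 0 between Tconv KO and Tconv WT and for the difference of the effects under every alternative. The cause of these shifts was not tested.

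Over all genes, the 599 calls between Treg WT and Tconv WT became 288 by limma-voom, 310 when the fit held these groups alone, and 339 to 664 without single libraries. The 975 within KO mice became 652 to 1092 without single libraries, and the 3 between Treg KO and Treg WT 0 to 17. Same-numbered libraries of different groups deviated from their group means at r from −0.04 to 0.08 over 21 pairs, none over 0.1, with a median of 0.04. Over the 74 pairs with unlike numbers the median was −0.006. Correlations this low, from groups of 3 to 5 libraries, cannot decide whether the numbers pair the samples. With the replicate number as a block (replicate block), the count was 0 between Treg KO and Treg WT, 0 between Tconv KO and Tconv WT, 2 within WT mice, 2 within KO mice, 5 over both genotypes and 0 for the difference of the effects. The planned edgeR and DESeq2 fits were not run, and limma-voom on the recovered reads, run in their place, was chosen after seeing the data. The 3 libraries left out together were chosen with earlier results of these data known. A fit of only the groups compared gives no separate value for the comparisons that use all 4 groups. Depth limits levels near the floor of 3 reads, which stood at a normalised value of 1.38 to 7.09 by library.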
